A study of Homo sapiens with 6 samples.

Results

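The CD3 chains and the T-cell surface receptors around them were examined in H9 cells upon inhibition of CDK9. They comprise 10 genes, chosen by name: the CD3 chains CD3D, CD3E, CD3G and CD247, the coreceptor CD4, the surface receptors CD2, CD5, CD7 and CD28, and the adaptor TRAT1. All 10 were found among the 61541 genes counted. H9 is an established cutaneous T-cell lymphoma (CTCL) cell line, labelled WT in both groups. The labels describe libraries from poly(A) RNA, whereas the supplemental methods describe rRNA depletion. Cells were treated with DMSO (vehicle, n = 3) or with AZD4573, a selective CDK9 inhibitor, for 4 h (n = 3), at 50 nM by the figure legends of the study. The labels give the time of 4 h for the AZD4573 libraries only and no time for the DMSO libraries. The comparison asks how the transcripts of these receptors stood after CDK9, the kinase that releases paused RNA polymerase II, was inhibited.

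The T-cell receptor binds peptide on MHC molecules through its variable alpha and beta chains, which have almost no cytoplasmic tail of their own. The signal is carried by the associated CD3 delta, epsilon, gamma and zeta chains, whose tails hold tyrosine motifs (ITAMs) that the kinase LCK phosphorylates and to which ZAP70 then binds. CD4 brings LCK to the receptor, CD28 provides costimulation, CD5 restrains the signal, CD2 serves adhesion, and TRAT1 is a transmembrane adaptor that associates with the receptor complex. Loss of CD7 and of other pan-T-cell antigens is a known feature of CTCL.

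Total counts ranged from 70367303 to 76571157 with DMSO and from 52101868 to 63795185 with AZD4573. Values are CPM, the count of a gene relative to the total of its library, scaled by the TMM method of edgeR, which assumes that most genes keep their level. The filter on low counts left 17678 genes. Mitochondrial mRNAs, the product of a polymerase other than RNA polymerase II, took a larger share of the counts with AZD4573 (4.85% ± 0.162) than with DMSO (3.13% ± 0.0929, SD, n = 3 each). When these 13 mRNAs set the scale instead, the median over all genes tested was -0.71 on the log2 scale, against 0.03 under TMM and -0.08 with library size alone. The mitochondrial scale assumes in turn that these mRNAs keep their level, which was not tested. Directions below are therefore given under TMM scaling, with the value under mitochondrial scaling where the direction flips.

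The receptor genes did not move together. Of the 10 members, 9 passed the filter on low counts and CD2 did not. CD4 and CD3E were called higher upon AZD4573 treatment and TRAT1 was called lower, where a call needs an adjusted p under 0.05 and a 1.5-fold change. Under TMM scaling 22.7% of all genes tested were called higher and 23.7% lower by this rule. The 2 higher and 1 lower of 9 members are thus near this background. Under mitochondrial scaling 5 members were called lower and 0 higher, beside 9433 lower and 1769 higher of the 17678 genes tested. At an adjusted p under 0.05 with any fold, CD3D, CD3G and CD5 were also higher and CD247 and CD28 also lower, which makes 5 higher and 3 lower members against 37.3% and 37.4% of all genes tested. For these 8 members the groups did not overlap, as was the case upward for 39.0% and downward for 38.7% of all genes tested. The median log2 fold change of the 9 members was 0.15, with a range from -1.67 to 0.87. At any fold, library size alone gave 3 higher and 3 lower members, with a median of 0.04 against -0.08 over all genes tested. Mitochondrial scaling gave 0 higher and 7 lower members, with a median of -0.59 against -0.71 over all genes tested. The shares of all genes at any fold given above hold for TMM scaling, and those under the other scalings are not given here.

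**Figure D1:**
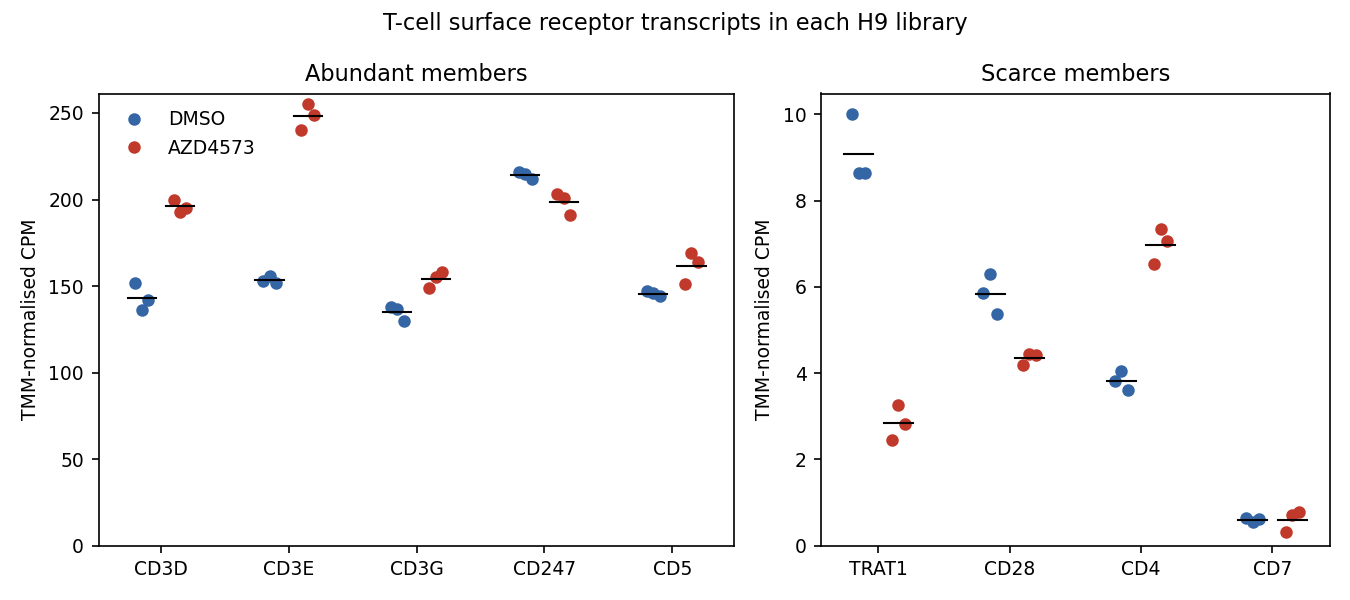
TMM-normalised CPM (vertical axis, from 0) of the 5 abundant members on the left and of 4 scarce members on the right, with a point for each library and a line at the mean of the 3 libraries. CD3E stands highest with AZD4573, TRAT1 falls from 9.10 to 2.84 CPM, and the libraries of both groups overlap for CD7; under mitochondrial scaling the log2 fold changes of CD3D, CD3E, CD3G, CD5 and CD7 are negative.

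Among the CD3 chains, CD3E, which pairs with both CD3D and CD3G in the receptor, showed the largest change under TMM scaling, whereas under mitochondrial scaling it showed the smallest and CD247 the largest. CD3E (ENSG00000198851, chromosome 11 of GRCh38, 118304730 to 118316175, plus strand) was at 153, 156 and 152 CPM in the DMSO libraries and 240, 255 and 249 CPM in the AZD4573 libraries. The groups did not overlap, and the 3 libraries of each group stayed close to each other. The means were 154 ± 2.10 and 248 ± 7.44 CPM (SD, n = 3), a fold change of 1.61 and a log2 fold change of 0.69 (SE 0.0404, adjusted p = 3.8e-09). Under mitochondrial scaling the log2 fold change of CD3E was -0.05 (adjusted p = 0.40), and with library size alone it was 0.58, just under the 1.5-fold that a call needs.

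CD3D (ENSG00000167286, chromosome 11, 118339075 to 118342705, minus strand), which encodes the delta chain, was at 152, 136 and 142 CPM with DMSO and at 200, 193 and 195 CPM with AZD4573. Its fold change was 1.37 (log2 fold change 0.45, SE 0.0464, adjusted p = 1.0e-06), and under mitochondrial scaling its log2 fold change was -0.29. CD3G (ENSG00000160654, chromosome 11, 118344344 to 118355161, plus strand), which encodes the gamma chain, was at 138, 137 and 130 CPM with DMSO and at 149, 155 and 158 CPM with AZD4573. Its log2 fold change was 0.19 (SE 0.0429, adjusted p = 0.0011), -0.55 under mitochondrial scaling and 0.09 with library size alone (adjusted p = 0.058). The rise of CD3G was thus the smallest of these 3 chains. CD3D and CD3G start 1639 bases apart and are transcribed in opposite directions. CD3E starts 37975 bases from CD3D in the same stretch of chromosome 11. In GENCODE release 44, 0 exon bases of these 3 genes overlap another gene.

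CD247 (ENSG00000198821, chromosome 1, 167425027 to 167518640, minus strand) encodes the zeta chain, which joins the complex last and carries most of its ITAMs. It was the only CD3 chain that was lower under TMM scaling, with 216, 215 and 212 CPM in the DMSO libraries and 203, 201 and 191 CPM in the AZD4573 libraries. The groups did not overlap, but the gap between them was small beside that of CD3E. The means were 214 ± 2.12 and 198 ± 6.24 CPM (SD, n = 3), or -0.11 in log2 fold change (SE 0.0402, adjusted p = 0.022). Without DMSO replicate 2 the adjusted p was 0.050, without AZD4573 replicate 3 it was 0.081, and with at least 10 counts required in every library it was 0.099, so that whether CD247 passed the test depends on these choices. Under mitochondrial scaling its log2 fold change was -0.85 (adjusted p = 1.1e-09). Its exons share 796 of 9361 bases with genes on the opposite strand, POU2F1 and ENSG00000287218, which counting without strand cannot separate. ENSG00000287218 itself had 15, 7 and 5 counts with DMSO and 40, 15 and 34 with AZD4573, against 10331 to 16969 counts of CD247. POU2F1 was not examined in this way, and the part of its reads in the value of CD247 was not tested.

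Ratios of counts within a library do not depend on the scaling between libraries, and so the balance of the chains was examined in this way. With DMSO, CD247 had 1.41, 1.37 and 1.39 counts per count of CD3E, and with AZD4573 it had 0.844, 0.786 and 0.768. CD247 counts were thus above those of CD3E with DMSO and below them with AZD4573, a log2 difference of -0.80. Counts are not corrected for length, and CD247 has 9361 exon bases against 2659 for CD3E. Only the change of a ratio or share between the groups is therefore read here, not which chain is more abundant. For CD3G the ratio went from 0.875 ± 0.0235 to 0.620 ± 0.0126 (SD, n = 3), a log2 difference of -0.50. For CD3D the ratio went from 0.931 ± 0.0600 to 0.790 ± 0.0387 (SD, n = 3), a log2 difference of -0.24. For all 3 ratios the groups did not overlap, and the two-sided exact permutation test gave p = 0.1, the smallest that 3 against 3 libraries allow. All 3 ratios share CD3E as denominator, the chain that rose most under TMM scaling, so that they are not independent. Their fall restates the separate fold changes of the chains and is not added evidence. In the sum of the 4 chains, the share of CD247 went from 33.2% ± 0.297 to 24.9% ± 0.746 and that of CD3E from 23.8% ± 0.539 to 31.2% ± 0.736 (SD, n = 3). The share of CD3D went from 22.2% to 24.6% and that of CD3G from 20.8% to 19.3%, also without overlap.

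**Figure D2:**
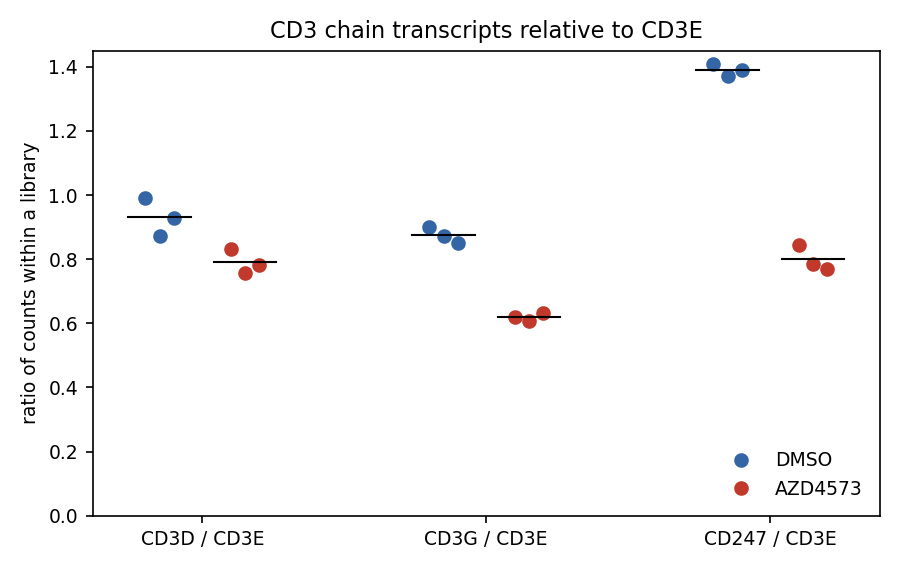
Ratio of the counts of CD3D, CD3G and CD247 to those of CD3E within each library (vertical axis, from 0), with a point for each of 3 DMSO and 3 AZD4573 libraries and a line at the mean. All 3 ratios are lower with AZD4573 without overlap, with the widest gap for CD247, from a mean of 1.39 to 0.799.

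The antigen-binding chains, which are not members, were read beside the CD3 chains through their constant regions. TRAC, the alpha constant gene, went from 56.4 ± 1.20 to 116 ± 2.31 CPM (SD, n = 3), or 1.04 in log2 fold change (SE 0.0437, adjusted p = 2.1e-10). TRBC1, a beta constant gene, went from 263 ± 14.4 to 507 ± 7.31 CPM (SD, n = 3), or 0.95 in log2 fold change (adjusted p = 6.5e-10). Both stayed higher under mitochondrial scaling, at 0.31 and 0.21. TRBC2 had a log2 fold change of 0.24 (adjusted p = 0.00027), and -0.50 under mitochondrial scaling. TRBC1 and TRBC2 resemble each other so closely that the split of their reads by RSEM is uncertain, as are those of TRGC1 and TRGC2. TRGC1 was at 24.6 and 24.3 CPM (log2 fold change -0.02, SE 0.0581, adjusted p = 0.73). The exons of TRGC1 share 966 of 2730 bases with TARP on the same strand, so that its value may include reads of TARP. TRGC2 had a log2 fold change of 0.52 (adjusted p = 0.022), but -0.22 under mitochondrial scaling, and its adjusted p was 0.062 without DMSO replicate 2, 0.064 without DMSO replicate 3 and 0.096 without AZD4573 replicate 1. With library size alone TRGC2 was at 0.41 (adjusted p = 0.060). TRDC, the delta constant gene, and PTCRA, the surrogate alpha chain of immature thymocytes, had no count in any library, which allows at most 0.0589 CPM in the smallest one.

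TRAT1 (ENSG00000163519, chromosome 3, 108822770 to 108855005, plus strand) had the largest change of the 9 members tested. It was at 10.0, 8.64 and 8.63 CPM in the DMSO libraries and at 2.46, 3.26 and 2.82 CPM in the AZD4573 libraries. The highest AZD4573 library was far under the lowest DMSO library. The means were 9.10 ± 0.811 and 2.84 ± 0.404 CPM (SD, n = 3), a fall of 3.19-fold and a log2 fold change of -1.67 (SE 0.120, adjusted p = 2.7e-08). Leaving out any library gave between -1.79 and -1.59, and mitochondrial scaling gave -2.42. As bulk RNA was measured, fewer cells with a transcript and less of it per cell cannot be told apart, here and for the other members.

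CD28 (ENSG00000178562, chromosome 2, 203706475 to 203738912, plus strand) was also lower, from 5.87, 6.29 and 5.37 CPM with DMSO to 4.18, 4.44 and 4.42 CPM with AZD4573. The groups did not overlap, and the DMSO libraries varied more than the AZD4573 ones. Its log2 fold change was -0.43 (SE 0.105, adjusted p = 0.0023), and from -0.50 to -0.38 when any library was dropped. CD4 (ENSG00000010610, chromosome 12, 6786858 to 6820799, plus strand), the coreceptor of helper T cells, moved the other way, from 3.82, 4.04 and 3.61 CPM to 6.52, 7.35 and 7.07 CPM. Each AZD4573 library was well above each DMSO library, although CD4 transcripts were scarce in both groups beside the CD3 chains. The fold change of CD4 was 1.83 (log2 fold change 0.87, SE 0.103, adjusted p = 4.0e-06). Under mitochondrial scaling its log2 fold change was 0.13 and did not pass the test (adjusted p = 0.30).

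CD5 (ENSG00000110448, chromosome 11, 61102489 to 61127852, plus strand), an inhibitory receptor, was at 147, 146 and 144 CPM with DMSO and at 151, 169 and 164 CPM with AZD4573. The AZD4573 library labelled replicate 1 lay only just above the DMSO libraries. The log2 fold change was 0.15 (SE 0.0470, adjusted p = 0.012) and -0.59 under mitochondrial scaling. The adjusted p of CD5 was 0.050 without DMSO replicate 2, 0.059 without DMSO replicate 3, 0.081 without AZD4573 replicate 2 and 0.055 without AZD4573 replicate 3. With library size alone the log2 fold change of CD5 was 0.04 (adjusted p = 0.38), and without a filter it was 0.11 (adjusted p = 0.093).

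CD7 (ENSG00000173762, chromosome 17, 82314868 to 82317608, minus strand), a surface glycoprotein of most mature T cells, was nearly absent. Its counts were 51, 40 and 45 with DMSO and 16, 40 and 48 after treatment, and the groups overlapped. The means were 0.602 ± 0.0524 and 0.601 ± 0.252 CPM (SD, n = 3), or 0.01 in log2 fold change with a standard error of 0.328 (adjusted p = 0.98). Even a change larger than this error could have gone undetected at this depth. CD2 (ENSG00000116824, chromosome 1, 116754430 to 116769229, plus strand), the receptor for CD58, had 13, 4 and 7 counts with DMSO and 1, 0 and 1 with AZD4573. These counts did not pass the filter. The ratio of the summed counts, 2 with AZD4573 and 24 with DMSO, scaled by library size and TMM factors, was 0.111 (exact Clopper-Pearson 95% interval 0.0127 to 0.448), which covers counting error only.

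**Figure D3:**
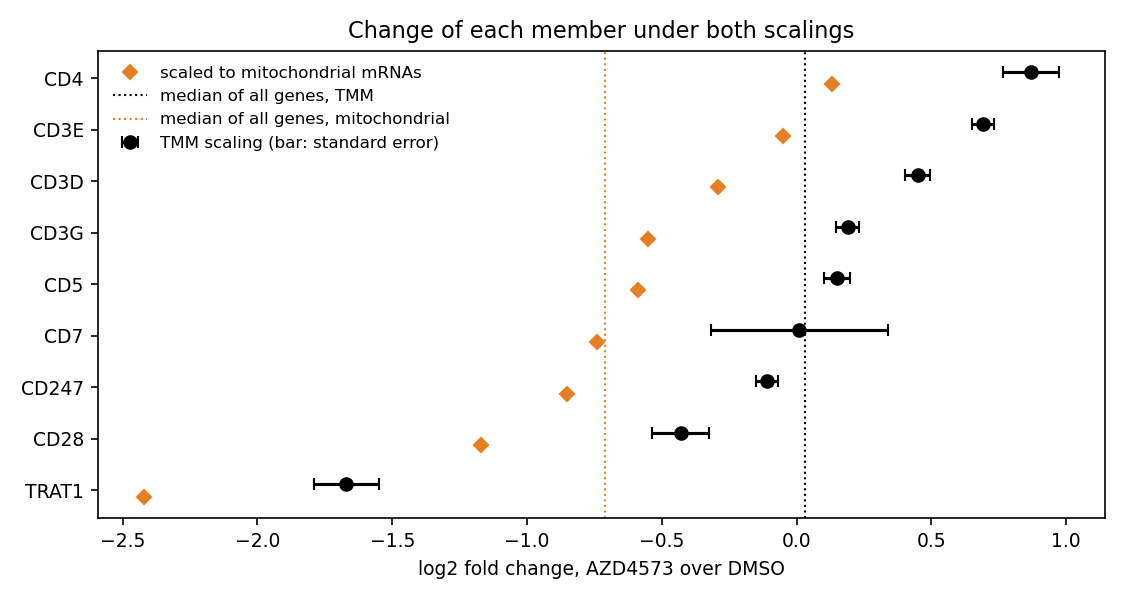
Log2 fold change of AZD4573 over DMSO (horizontal axis) for the 9 members tested, under TMM scaling with its standard error (circles) and under mitochondrial scaling (diamonds), with the median of all genes tested under each (dotted lines at 0.03 and -0.71). The scaling moves all members by nearly the same amount, and CD4 alone lies above 0 under mitochondrial scaling.

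A change of scaling moves all genes by nearly the same amount, so that the place of a member relative to the median of all genes is fixed by construction. Under TMM scaling CD4 lay 0.84, CD3E 0.66, CD3D 0.42, CD3G 0.16 and CD5 0.12 above the median on the log2 scale. CD7 lay at -0.02, CD247 at -0.14, CD28 at -0.46 and TRAT1 at -1.70 relative to it.

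The study concerns the transcription factor GATA-3, and the promoters of the members were therefore searched on both strands for the GATA consensus, spelled with the letters AGATAA or with the letters AGATAG, and likewise with the letters TGATAA or with the letters TGATAG, from 250 bases before to 50 bases after the start. RefSeq promoters (GRCh38.p14) were at hand for 5 members, CD3D, CD247, CD2, CD28 and TRAT1. Those of the delta chain, which rose under TMM scaling, of the zeta chain, which fell, and of TRAT1, which fell most, are shown to their base 30 after the start, 5′ to 3′ on the strand of the gene, with matches in capitals. They lie at chr11:118342676-118342955 (minus strand), chr1:167518500-167518779 (minus strand) and chr3:108822536-108822815 (plus strand).
CD3D: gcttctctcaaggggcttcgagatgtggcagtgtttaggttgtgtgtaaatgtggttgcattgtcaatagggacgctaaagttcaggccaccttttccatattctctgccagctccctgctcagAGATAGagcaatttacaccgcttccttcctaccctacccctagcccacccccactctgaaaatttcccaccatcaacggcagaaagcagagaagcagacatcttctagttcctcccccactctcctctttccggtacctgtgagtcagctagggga
CD247: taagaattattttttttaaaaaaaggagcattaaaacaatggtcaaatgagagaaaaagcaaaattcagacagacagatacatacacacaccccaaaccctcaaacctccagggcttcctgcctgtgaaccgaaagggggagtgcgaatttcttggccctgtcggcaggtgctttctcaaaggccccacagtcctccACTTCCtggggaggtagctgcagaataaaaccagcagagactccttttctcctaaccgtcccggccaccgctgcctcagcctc
TRAT1: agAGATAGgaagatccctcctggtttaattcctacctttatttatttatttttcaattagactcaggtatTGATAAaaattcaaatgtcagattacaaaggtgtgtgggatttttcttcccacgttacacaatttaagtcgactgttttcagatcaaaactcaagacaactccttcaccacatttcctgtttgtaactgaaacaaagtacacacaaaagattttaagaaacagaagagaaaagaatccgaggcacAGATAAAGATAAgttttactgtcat
TRAT1 held 4 matches of the GATA letters, with their first base at -248, -180, 6 and 12 from the start. CD3D held 1 match, at -126, and CD247, CD2 and CD28 held 0. Of 35116 promoters of the same length, 25.0% held at least 1 match and 0.253% held at least 4. The promoter of TRAT1 is poor in G and C (33.3%, against 52.3% for CD3D and 49.3% for CD247), and the chance of a match in such a sequence was not tested. The capitals in CD247 mark a match of the ETS letters GGAAGT, read on the opposite strand, which 22.8% of all promoters held and none of the other 4 members did. The TATA letters TATAAA (11.5% of all promoters) and the E-box letters CAGCTG (17.9%) were found in 0 of the 5 promoters, and no match shared a base with another motif. These are matches of letters only, and binding at them was not analysed here.

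Levels of different genes were compared as CPM per kilobase of exon, with all exon bases of a gene as its length. With DMSO, CD3E stood highest at 57.9 ± 0.791 (SD, n = 3), followed by CD5 at 46.7 ± 0.503, CD3D at 42.1 ± 2.32, CD3G at 35.1 ± 1.09 and CD247 at 22.9 ± 0.227 CPM per kilobase. A wide gap separated these 5 from TRAT1 at 3.71 ± 0.330, CD28 at 1.20 ± 0.0941, CD4 at 0.839 ± 0.0472, CD7 at 0.220 ± 0.0191 and CD2 at 0.0643 ± 0.0344 CPM per kilobase. In neither group did the libraries of neighbours in this order overlap. With AZD4573, CD3D at 57.5 ± 1.08 passed CD5 at 51.7 ± 3.02, and CD4 at 1.53 ± 0.0924 passed both TRAT1 at 1.16 ± 0.164 and CD28 at 0.890 ± 0.0290 CPM per kilobase. The order depends on the length used in both groups. Per kilobase of its longest transcript CD247 stood first with DMSO at 73.3, since its 40 annotated transcripts spread over 9361 exon bases and its longest has 2921, and CD3D at 58.7 and CD3E at 58.3 then overlapped, as did CD4 and CD28. By this length CD3D stood above CD5 with DMSO already, and with AZD4573 CD247 at 67.9 stood above CD3G at 57.2 and CD5 at 51.7 CPM per kilobase.

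The length of the gene itself was set beside these changes. Over the 9 members tested, Spearman's rho between the span of the gene and its log2 fold change was -0.217, and over the 17638 genes tested with a gene model it was -0.101, both across genes that share the same 6 libraries. Over all genes tested with a model, the median log2 fold change was 0.22 for spans under 10 kilobases. It was -0.01 from 10 to 30 kilobases and -0.06 over 30 kilobases. CD4, CD28 and TRAT1 span 33942, 32438 and 32236 bases, with log2 fold changes of 0.87, -0.43 and -1.67. The part of span in the changes of the members was not tested.

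The genes most like each member over the 6 libraries were found by the root-mean-square difference of log2 CPM, each gene centred on its own mean, among genes with a mean of at least 10 CPM. CD3D was closest to CD99, another T-cell surface glycoprotein, with a difference of 0.0197, and CD3E to SREBF2, a regulator of cholesterol synthesis genes, with 0.0119. CD3G was closest to NUDT21, a cleavage and polyadenylation factor, with 0.0114, and CD247 to DDX56, an RNA helicase, with 0.0155. CD5 was closest to ULBP2 (0.0183), CD4 to TAFAZZIN (0.0279), CD28 to CERS5 (0.0301) and TRAT1 to ZNF576 (0.0985). CD7 and CD2, with few counts, had no close neighbour, at 0.260 from DUSP4 and 0.328 from MTHFS. Among the members, CD3G and CD5 were closest to each other at 0.0424, and CD3E and CD4 were each other's nearest at 0.0983. With 9178 or 9179 genes to choose from and only 6 libraries, these names are a description.

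The pathway around the receptor was examined through 5 lists of 67 genes, of which 60 were tested. By the same rule for a call, 9 of these were higher (15%, against 22.7% of all genes tested) and 6 lower (10%, against 23.7%). At an adjusted p under 0.05 with any fold, 33 were higher (55.0%, against 37.3%) and 17 lower (28.3%, against 37.4%). These backgrounds apply to the lists below under TMM scaling only. The share of higher genes thus lay under the background by the first rule and over it by the second. Their median log2 fold change was 0.20, against 0.03 for all genes tested. Under mitochondrial scaling, 1 was called higher and 26 lower, beside 1769 higher and 9433 lower of the 17678 genes tested. The list medians then ran from -0.74 for the adaptors to -0.22 for the antigen receptor chains, against -0.71 for all genes tested. Shares of all genes at any fold under this scaling are not given here, so that the counts below have no such background.

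Of the 11 receptor-proximal kinases and phosphatases, 7 were higher and 3 lower at an adjusted p under 0.05, with a median log2 fold change of 0.15, and under mitochondrial scaling 1 was higher and 9 lower. PTPRC (CD45), the phosphatase that keeps LCK active, rose from 413 ± 1.34 to 873 ± 43.7 CPM (SD, n = 3), or 1.08 in log2 fold change (adjusted p = 2.0e-10). TXK, a Tec family kinase, had a log2 fold change of 0.44 (adjusted p = 0.012), but -0.30 under mitochondrial scaling, whereas PTPRC stayed higher at 0.34. UBASH3B, a phosphatase that dampens the signal, fell from 58.2 ± 2.48 to 39.8 ± 1.39 CPM (SD, n = 3), or -0.55 in log2 fold change (adjusted p = 4.8e-07).

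Of the 19 adaptors, 7 were higher and 9 lower at an adjusted p under 0.05, with a median log2 fold change of 0.00, and under mitochondrial scaling 1 was higher and 16 lower. LAX1, a transmembrane adaptor like TRAT1, fell from 18.1 ± 0.487 to 4.28 ± 0.334 CPM (SD, n = 3), or -2.08 in log2 fold change (adjusted p = 1.5e-10). NCK1, which binds the tail of CD3E, fell by 1.57 on the log2 scale (adjusted p = 8.9e-10). LAT2, a transmembrane adaptor best known from B cells and mast cells, rose from 1.58 ± 0.117 to 22.2 ± 2.57 CPM (SD, n = 3), or 3.82 in log2 fold change (adjusted p = 1.9e-11). SKAP1, a scaffold for integrin activation, had a log2 fold change of 0.81 (adjusted p = 0.0087) at under 2 CPM.

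Of the 12 ligands of the members, 10 were tested, and 5 were higher and 1 lower at an adjusted p under 0.05, with a median log2 fold change of 0.23, and under mitochondrial scaling 0 were higher and 7 lower. CD58, the ligand of CD2, was the lower one and fell from 6.76 ± 0.186 to 0.858 ± 0.134 CPM (SD, n = 3), or -2.98 in log2 fold change (adjusted p = 5.6e-10). The 5 higher genes were among the 6 MHC class II genes of the list, which encode the ligands of CD4, all but HLA-DPA1 (adjusted p = 0.056). HLA-DQB1 led them at 0.92 on the log2 scale (adjusted p = 0.00031), followed by HLA-DQA1 at 0.46 (adjusted p = 0.022), and under mitochondrial scaling HLA-DQB1 alone of the 6 was above 0, at 0.18 (adjusted p = 0.35). With library size alone, only HLA-DQB1 and HLA-DRB1 passed the test. The class II genes belong to families of similar sequence, so that their separate values are uncertain. CD80 and CD86, the ligands of CD28, averaged at most 0.141 CPM in either group and were not tested. HLA-DPA1, HLA-DRB1, CD80 and CD86 were named after their values were seen.

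Of the 18 other T-cell surface glycoproteins, 15 were tested, and 10 were higher and 4 lower at an adjusted p under 0.05, with a median log2 fold change of 0.23, and under mitochondrial scaling 1 was higher and 11 lower. CD37, a tetraspanin, rose from 30.1 ± 2.65 to 71.5 ± 2.92 CPM (SD, n = 3), or 1.25 in log2 fold change (adjusted p = 1.2e-09), and CD38, an ectoenzyme, had 0.77 (adjusted p = 5.4e-09). ICOS, a relative of CD28, had a log2 fold change of -0.58 (adjusted p = 4.6e-06). IL7R, the receptor for interleukin 7, was lower with -2.36 (adjusted p = 7.7e-05), but from only 0.585 CPM with DMSO.

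**Figure D4:**
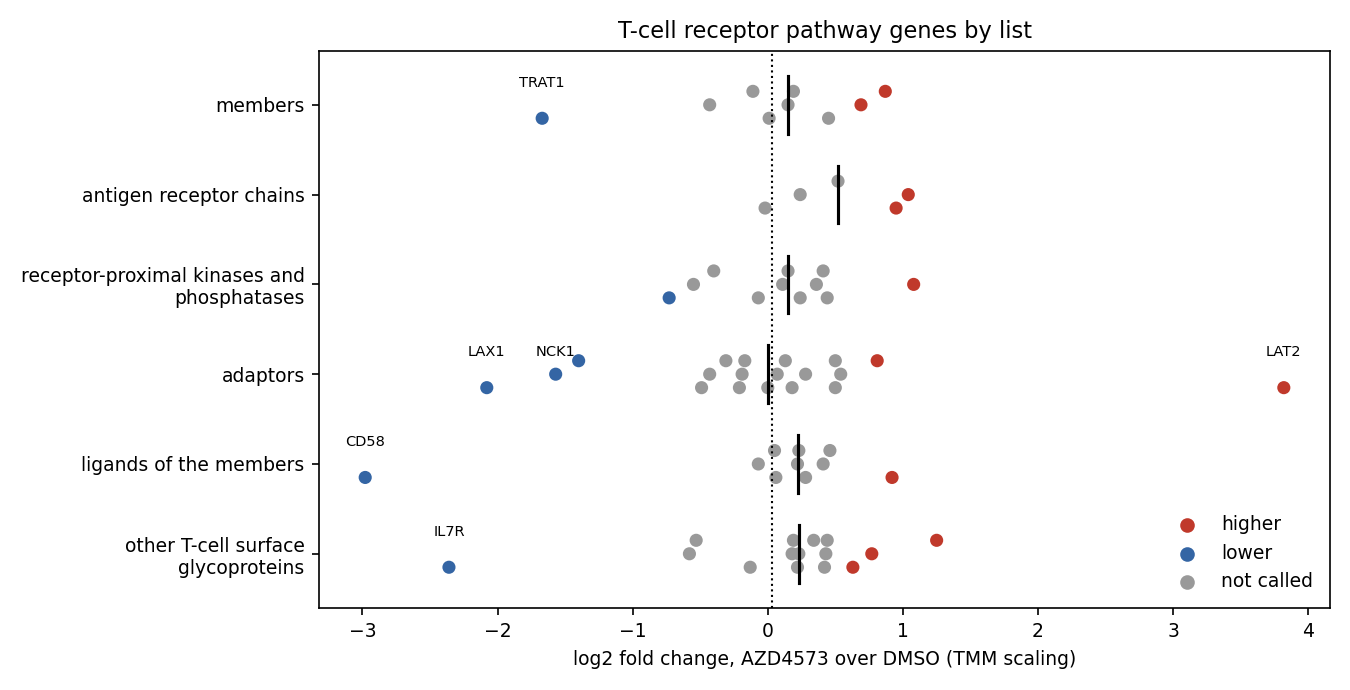
Log2 fold change of AZD4573 over DMSO under TMM scaling (horizontal axis) for the tested genes of the members and of the 5 pathway lists, with called genes in red (higher) and blue (lower), other genes in grey, a black bar at the median of each list and a dotted line at the median of all genes tested, 0.03. The list medians lie between 0.00 and 0.52, and LAT2 at 3.82 and CD58 at -2.98 stand farthest apart. Under mitochondrial scaling 26 of the 60 list genes were called lower and 1 higher, beside 9433 and 1769 of the 17678 genes tested.

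The cell type was checked through marker genes. The CD3 chains and the alpha and beta constant genes were abundant, as in T cells, whereas CD2 and CD7 were at or near 0. CD8A was at 0.545 and 0.621 CPM with DMSO and AZD4573, and CD8B had no count, while CD4 averaged 3.82 and 6.98 CPM. The 6 B-cell markers summed to 61.0 to 67.1 CPM with DMSO and 92.5 to 103 CPM with AZD4573, mostly from CD79A (57.8 and 93.5 CPM on average), with CD79B at 5.66 and 3.46 CPM, while MS4A1, PAX5 and CD22 averaged at most 0.302 CPM in either group. The 6 myeloid markers summed to 0.0637 to 0.205 CPM with DMSO and 1.03 to 2.0 CPM with AZD4573, mostly from MPO, which had no count with DMSO, and CD163 was at 0 throughout. The 5 NK-cell markers summed to at most 0.164 and 0.295 CPM, with NCR1 and FCGR3A at 0 in all libraries. The part of these markers in the changes of the members was not tested.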

How the data were processed

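Bulk RNA-seq of H9 cells covered 3 libraries treated with DMSO and 3 with AZD4573, grouped by their labels. The authors deposited expected counts per gene as whole numbers without normalization, estimated with RSEM 1.3.3 at its default parameters, which ignore strand, after trimming with Cutadapt 2.3 and alignment to GRCh38 with STAR 2.7.8a. Of the columns, 0 belonged to samples outside these groups.

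The counts were read in R 4.3.3 with edgeR 4.0.16. Reporter sequences (5 entries, all at 0) were dropped, and filterByExpr (minimum count 10) set which genes were tested. After TMM scaling the groups were compared by the quasi-likelihood test of edgeR, and p-values were adjusted by the Benjamini-Hochberg method over all 17678 genes. Calls needed an adjusted p under 0.05 together with a 1.5-fold change, after the study's thresholds, which do not state an adjustment. Ratios between chains were compared by a two-sided exact permutation test over libraries. DESeq2 1.42.0 and the other alternatives are given in the closing section.

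Gene models came from GENCODE release 44 (GRCh38), which matched 61369 of 61541 gene identifiers, and promoters from RefSeq (GRCh38.p14). The members and gene lists were chosen with earlier results of these data known. The names follow a rule: all 10 members, all antigen receptor chains, the 2 largest falls and 2 largest rises past the test in each other list, and for each member the gene whose centred log2 CPM (prior count 2) lay closest over the 6 libraries, among genes with a mean of at least 10 CPM. Some genes of these lists are not reported here by name.

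The procedure was tested on simulated data. A chi-square test of the counts, 5.59 to 21.2 per degree of freedom for pairs within a group, found no library deposited more than once. Whether the libraries came from separate cultures is not stated in the labels, so that p-values measure only the spread between these libraries. Intervals and floors cover counting error only.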

Additional observations from a re-analysis of the deposited data

How the results depend on the processing

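The scaling changed the calls most. With mitochondrial mRNAs (13) as the scale, calls over all genes were 9433 lower and 1769 higher, 5 members were lower and 0 higher, and 26 pathway genes were lower and 1 higher. The log2 fold change then reversed for CD3D (-0.29), CD3E (-0.05), CD3G (-0.55), CD5 (-0.59), CD7 (-0.74), TRBC2 (-0.50) and TRGC2 (-0.22). With RLE factors and with DESeq2 the members kept the same counts of calls, 1 lower and 2 higher, and over all genes DESeq2 called 4076 lower and 3906 higher. With library size alone, 1 member was higher and 10 pathway genes were lower, beside 3444 higher and 4769 lower genes over all tested. CD7 then reversed to -0.10. Without a filter, 2 members were lower, since CD2 was then tested (-3.01, adjusted p = 0.029), and CD7 reversed to -0.03. With at least 10 counts in every library TRGC1 reversed to 0.01. The TMM factors were computed anew from the genes that this filter left. All other members and antigen receptor chains tested also moved up under this setting. CD3D went from 0.45 to 0.49 and TRAT1 from -1.67 to -1.64. By construction, a fold change of at least 2 left 2450 lower and 2643 higher genes and 0 higher members, and an adjusted p with any fold gave 6606 and 6596 genes with 3 lower and 5 higher members. Taken as a share of the 4 chains in place of a ratio to CD3E, CD3D reversed to 0.15, since the sum also holds CD247 and CD3G. With each library left out in turn, CD7 ranged from -0.24 to 0.30 and TRGC1 from -0.06 to 0.00.

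The labels do not say whether replicate numbers mark a pairing. Same-numbered libraries had correlations of -0.0208, 0.0417 and 0.0316 in their deviations. Such values show no shared deviation, but cannot exclude that these libraries were handled together. A fit with the replicate number as a block called 4162 genes lower and 3926 higher, 1 member was lower and 2 higher, and CD7 reversed to -0.05. Over all alternatives for the members and antigen receptor chains, 151 fold changes kept their direction and their side of an adjusted p of 0.05, whatever their fold, 15 no longer passed it, 15 reversed and 1 newly passed it. Of the genes called, CD3E fell short of 1.5-fold with library size alone (0.58), as did CD4 (0.13), TRAC (0.31) and TRBC1 (0.21) under mitochondrial scaling. At this depth, the few counts of CD2 and CD7 limit what can be said of them.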
